A study of Mus musculus with 13 samples.

Results

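Of the 3347 regions at which HDAC3 was called in the pooled libraries of Ba/F3 cells deprived of interleukin 3 (IL3), 994 overlapped no pooled HDAC3 region called with IL3 and overlapped, by 1 bp or more, a pooled STAT5A region called with IL3. Of all 3347, 40.4 percent overlapped that STAT5A list. These 994 regions, among 59114 in the 6 pooled lists of the study, are described here. They were chosen on measured calls, namely the pooled HDAC3 lists of both conditions and the pooled STAT5A list with IL3, so their HDAC3 values and their STAT5A values with IL3 are a description and carry no test. The LSD1 lists and the STAT5A lists without IL3 were not used to choose them.

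Ba/F3, a single cell line made from mouse pro-B cells, needs IL3 to grow and survive. Chromatin bound by STAT5A, LSD1 or HDAC3 was sequenced after immunoprecipitation (ChIP-seq), with 2 biological replicates of each protein and condition, 12 libraries in all. All cells were kept in medium with 1 ng/mL IL3 before the experiment and were then without it for 6 h. Cells called "without IL3" were taken at that point, and cells called "with IL3" received 10 ng/mL of it for a further 30 min.

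STAT5A is a transcription factor that waits in the cytoplasm until JAK2, the kinase bound to the IL3 receptor, phosphorylates it, after which it enters the nucleus and binds palindromic sites of the form TTCNNNGAA. HDAC3 removes acetyl groups from histones as the catalytic subunit of NCoR and SMRT corepressor complexes. LSD1 removes methyl groups from histone H3 as part of CoREST complexes, and in blood cells the repressors GFI1 and GFI1B bring it to DNA.

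Sequence could be read for the 93 regions that lay wholly inside a promoter window of RefSeq (GRCm38.p6, the mm10 build, 250 bases before to 50 after a gene start). The 9 members printed here show which letters those promoter regions hold. Tfr2 was called in both HDAC3 replicates without IL3, Jak2, Gse1 and Maff are genes of the fixed lists, Gm34793 and B230219D22Rik are the only 2 of the 93 with TTCNNNGAA, and Hdac7, Prkar2b and Psmc6 are rich in G and C. Tfr2, Hdac7, Prkar2b, Psmc6, Gm34793 and B230219D22Rik were chosen after their values were seen. The last sequence, the central 147 bp of the STAT5A region at the start of Cish, a feedback inhibitor of cytokine signalling, is no member and is shown for contrast, because STAT5A was called there with IL3 (score 587.5, both replicates) and HDAC3 in no list. STAT5A was also called at Cish without IL3 (score 25.1, replicate 1). Capitals mark TTCNNNGAA (STAT factors), CCGGAAG and CAGGAAG (ETS factors), TGTGGTT (RUNX factors), AGATAA, which GATA factors bind, TGANTCA (AP-1), CACGTG (E-box) and GGGGCGG (SP and KLF factors) on either strand, and each sequence reads 5′ to 3′ on the strand of its gene.
Tfr2 (chr5:137570811-137570957, plus): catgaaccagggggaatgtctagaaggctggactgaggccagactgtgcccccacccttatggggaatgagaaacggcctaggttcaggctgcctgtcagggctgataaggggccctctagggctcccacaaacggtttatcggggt
Jak2 (chr19:29251641-29251787, plus): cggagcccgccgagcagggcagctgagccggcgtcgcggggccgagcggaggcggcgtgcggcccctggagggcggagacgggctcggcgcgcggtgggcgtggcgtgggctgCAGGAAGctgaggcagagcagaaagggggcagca
Gse1 (chr8:120537289-120537435, plus): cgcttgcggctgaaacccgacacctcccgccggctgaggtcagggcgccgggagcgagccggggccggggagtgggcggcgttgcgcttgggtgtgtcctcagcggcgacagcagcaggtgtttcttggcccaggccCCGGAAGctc
Maff (chr15:79347295-79347441, plus): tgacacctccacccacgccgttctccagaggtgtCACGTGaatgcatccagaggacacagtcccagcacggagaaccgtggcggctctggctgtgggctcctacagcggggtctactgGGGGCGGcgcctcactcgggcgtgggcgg
Hdac7 (chr15:97831567-97831713, minus): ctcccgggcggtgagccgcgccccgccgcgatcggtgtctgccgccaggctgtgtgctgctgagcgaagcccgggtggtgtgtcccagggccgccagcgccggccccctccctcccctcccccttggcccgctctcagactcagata
Prkar2b (chr12:32061306-32061452, minus): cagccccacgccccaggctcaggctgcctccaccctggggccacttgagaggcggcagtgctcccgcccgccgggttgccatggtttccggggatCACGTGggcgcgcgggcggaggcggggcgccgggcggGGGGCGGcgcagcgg
Psmc6 (chr14:45329642-45329788, plus): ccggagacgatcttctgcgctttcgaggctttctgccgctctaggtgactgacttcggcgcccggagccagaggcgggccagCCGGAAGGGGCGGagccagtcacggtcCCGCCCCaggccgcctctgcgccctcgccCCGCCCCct
Gm34793 (chr11:72946426-72946572, plus): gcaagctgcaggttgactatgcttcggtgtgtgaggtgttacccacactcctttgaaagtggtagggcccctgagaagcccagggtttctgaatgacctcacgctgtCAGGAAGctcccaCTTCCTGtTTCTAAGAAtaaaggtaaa
B230219D22Rik (chr13:55692954-55693100, plus): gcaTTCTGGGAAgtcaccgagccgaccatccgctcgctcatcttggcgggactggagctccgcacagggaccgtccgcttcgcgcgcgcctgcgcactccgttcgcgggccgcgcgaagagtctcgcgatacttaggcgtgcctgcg
Cish (chr9:107296534-107296680, plus): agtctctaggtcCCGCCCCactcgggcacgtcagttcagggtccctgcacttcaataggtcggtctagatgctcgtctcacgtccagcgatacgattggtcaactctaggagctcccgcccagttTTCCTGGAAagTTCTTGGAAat

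Of the 93 promoter members, 2 held TTCNNNGAA (2.15%, 95% Wilson interval 0.592 to 7.51) and 0 held the stricter TTCCNGGAA. The Cish window alone held 2 of the first and 1 of the second. TTCNNNGAA was in 18.3% of 832 promoter regions called for STAT5A with IL3 and for HDAC3 in neither condition, and in 4.02% of 32817 promoter windows cut to the same 147 bp. A member was read over its HDAC3 region, while the 832 were read about the centre of their STAT5A region. Over all 994 members the HDAC3 and STAT5A centres lay a median of 49.0 bp apart. Letters under STAT5A can thus lie outside a member's window, and these shares are not like for like. Some other letters were more frequent in the 93 than in all windows. CCGGAAG, the ETS form seen in Gse1 and Psmc6, was in 18.3%, GGGGCGG in 34.4% and CACGTG, seen in Maff and Prkar2b, in 10.8%. In all promoter windows these shares were 4.09%, 15.4% and 3.82%, and in the 832 STAT5A regions 15.0%, 27.9% and 6.25%. In 157 promoter regions called for HDAC3 without IL3 alone and lacking STAT5A they were 13.4%, 38.2% and 7.01%. TTCNNNGAA was in 0.637% of those 157, so these shares are not particular to the members. CAGGAAG was in 8.60% of the 93 and 6.70% of all windows, TGTGGTT in 3.23% and 2.65%, TGANTCA in 4.30% and 4.28%, and AGATAA in 1.08% and 5.77%. The promoter members were GC-rich, with a median of 15 CpG in 147 bp against 14 in the 157, 12 in the 832 and 3 in all windows. Of the 93, 75 held 10 CpG or more, and Tfr2 with 3 and Gm34793 with 2 lay at the low end. A match is a string of letters and not a binding site.

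The libraries differ in what they hold. Replicate lists ran from 234 regions (HDAC3 with IL3, replicate 2) to 15783 (LSD1 without IL3, replicate 2) on assembled chromosomes. No read totals were used, since none is stated in the labels or the files. In HDAC3 replicate 2 with IL3, 1 region took 74.2% of the summed score.

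How far the choice rests on single libraries was counted in each HDAC3 replicate. HDAC3 was called at 502 of the 994 regions (50.5%) in replicate 1 without IL3 and at 114 (11.5%) in replicate 2, against 41.6 and 14.0 percent of all 3347 pooled regions. Both replicates held 56 regions (5.63%), replicate 1 alone 446, replicate 2 alone 58, and neither replicate 434 (43.7%). Of 1856 regions called without IL3 alone and lacking STAT5A, both replicates held 1.24% and neither held 60.6%. Of 358 called in both conditions with STAT5A, both held 21.8% and neither 15.9%. At the 994 the call without IL3 thus came from replicate 1 or from the pooled library far more often than from both replicates. With IL3, replicate 1 held 33 of the regions (3.32%, of all 3347 9.47) and replicate 2 held 5 (0.503%, of all 1.73), 37 different regions that the pooled list with IL3 did not call. The HDAC3 call of both replicates without IL3 and the lack of one in either replicate with it were met by 50 regions (5.03%). Of those, 19 were also called for STAT5A in both replicates with IL3.

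Replicate support went with the HDAC3 score, the value that the authors gave each region. Scores of the pooled list without IL3 are whole multiples of a step of 2.22, and the members ran from 5 to 34 steps with a median of 9 (score 20.0). The 1856 deprivation-only regions without STAT5A had a median of 8 steps, and the 358 regions with STAT5A that were called in both conditions had 12. In members of 5 to 7 steps, 75.7% of 284 were in neither replicate without IL3. That share was 55.8% of 317 at 8 to 9 steps, 16.4% of 232 at 10 to 12 steps and 2.48% of 161 at 13 or more. Over the same bands the share of all HDAC3 regions without IL3 that lacked an HDAC3 call with IL3 was 95.8%, 90.7%, 79.6% and 54.9%, and 85.2 percent over the whole list. The share with STAT5A was 26.6%, 35.6%, 52.2% and 68.7%. At each higher band the share called without IL3 alone was thus lower and the share with STAT5A higher.

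**Figure D1:**
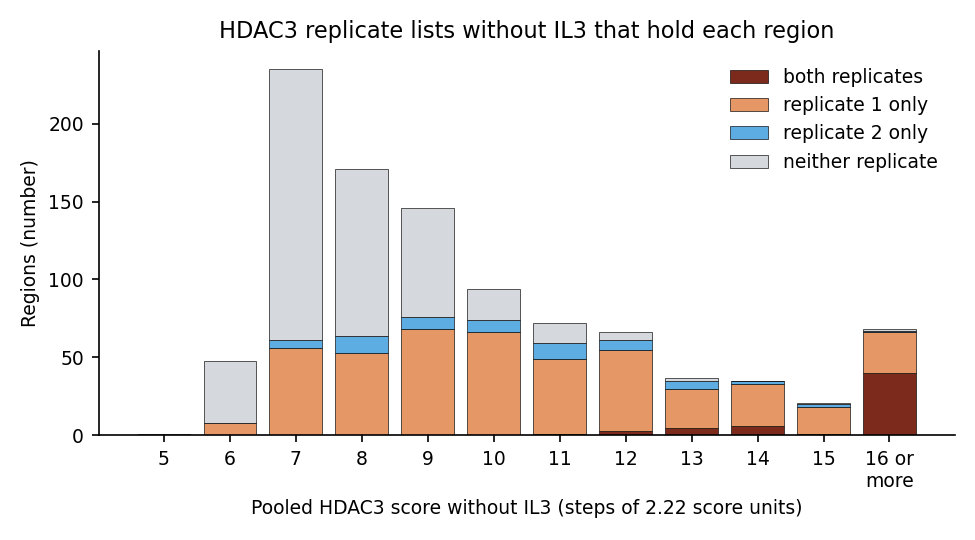
Number of the 994 regions (vertical axis) by pooled HDAC3 score without IL3, in steps of 2.22 score units (horizontal axis), with the colour giving which HDAC3 replicate lists without IL3 hold the region. Of the 68 regions at 16 steps or more, 40 were in both replicates, and below 11 steps 0 were.

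List length was controlled because the pooled HDAC3 list without IL3 held 3347 regions and that with IL3 1208. On the reading that 1 score step is 1 read, the pooled library with IL3 was 1.27 times as deep as that without, but replicate 2 with IL3 reads 8.84 in relative units, more than the 8.61 of its own pool, so this depth ratio is not secure. The 1208 highest-scoring regions without IL3 contained 429 of the 994 members. The cut fell among regions tied at a score of 20.0, which were taken in the order of chromosome and start, and 393 members scored above 20.0 and 539 at 20.0 or above. With both lists at 1208, 848 regions were called without IL3 alone and 429 of them (50.6%) had STAT5A, while 848 were called with IL3 alone and 431 of them (50.8%) had STAT5A. With all tied regions left out the shares were 51.2% of 767 and 51.2% of 859, and with all kept 46.3% of 1164 and 50.4% of 811. At 600 regions in each list the numbers were 244 of 394 (61.9%) without and 270 of 394 (68.5%) with IL3, and at 200 they were 97 of 133 (72.9%) and 108 of 133 (81.2%). At equal length, STAT5A was therefore as frequent or more so at the regions of the opposite kind, those called with IL3 alone. In the full lists the share with STAT5A was 34.9% (33.1 to 36.6) of 2850 regions called without IL3 alone and 48.8% (45.1 to 52.5) of 711 called with IL3 alone.

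**Figure D2:**
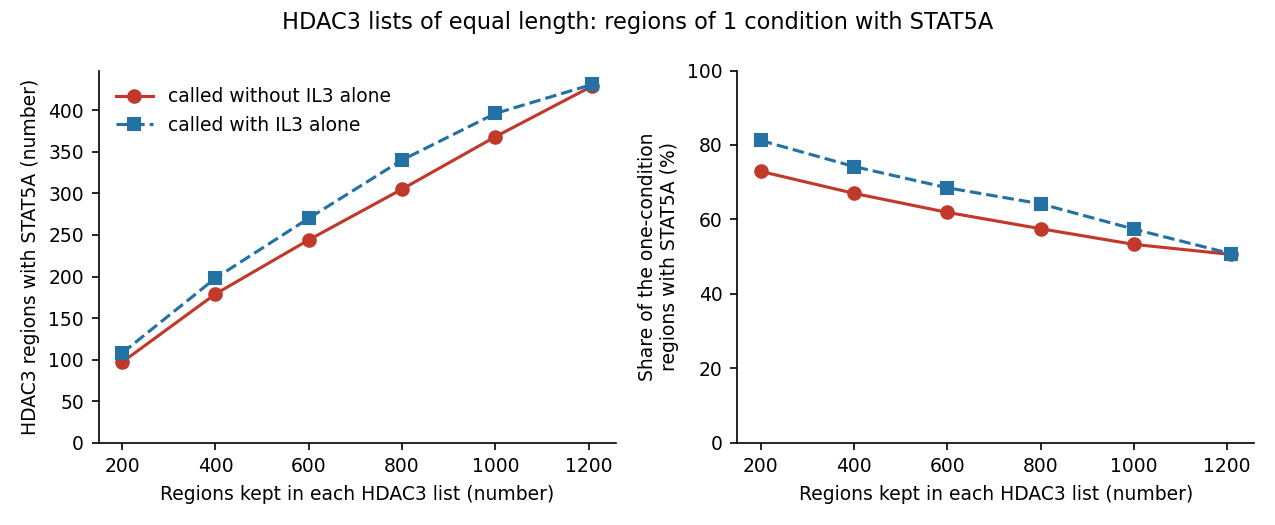
HDAC3 regions called in 1 condition alone that overlap STAT5A with IL3, as a number (left) and as a share in percent (right), when both pooled HDAC3 lists are cut to the same number of highest-scoring regions (horizontal axes). The curve for regions without IL3 (red) runs from 97 to 429 and that for regions with IL3 (blue) from 108 to 431.

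The rule has edges, and some high members lay at them. The overlap with STAT5A ran from 1 bp, with a median of 112 bp, and 28 members overlapped it by 10 bp or less. Just outside, 22 of the 1856 deprivation-only regions without STAT5A had a STAT5A region at a gap of 10 bp or less. On the HDAC3 side the smallest gap of a member to a region called with IL3 was 3 bp, and the smallest overlap that kept a region out was 5 bp. An HDAC3 region with IL3 lay within 1000 bp of 49 members (4.93%). Such neighbours were more common among the highest scores. Of the 10 members with the highest HDAC3 score 6 had one within 2000 bp, of the first 100 19 had one, and of the remaining 894 45 (5.03%).

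The highest HDAC3 score without IL3, 75.6, was in Dnah8, a gene for an axonemal dynein (chr17:30821231-30821377, 54458 bp from the nearest gene end). It was called in both HDAC3 replicates without IL3 and neither with IL3, in all 4 STAT5A replicates, and in the number 2 replicate of LSD1 in each condition. Its nearest HDAC3 region with IL3 was 39570 bp away. Dnah8 had 2 more members, at scores 51.2 and 35.6, and the last of these had a STAT5A score with IL3 of 331.1. Both were called in HDAC3 replicate 1 alone and in all 4 LSD1 replicates, so the 3 regions of this gene differ in their support.

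The next member (71.2, chr17:84116429-84116575) lay 67422 bp from Zfp36l2, which encodes an mRNA decay factor, and was in both HDAC3 replicates without IL3. A pooled HDAC3 region with IL3 (33.4) lay 4 bp from it, so HDAC3 was called on both sides of that boundary. The same holds for Nfe2, the gene of an erythroid and megakaryocyte factor, where the member (68.9, chr15:103258310-103258456) lay 20 bp inside the gene end. It was in HDAC3 replicate 2 with IL3, and a region of the pooled list with IL3 (59.7) lay 80 bp away. STAT5A with IL3 reached 224.3 there in both replicates, and LSD1 was called with IL3 (88.6) and not without. STAT5A was also called there without IL3 (37.7), in the pooled library and in neither replicate. Gaps of 33 to 55 bp also separated members from HDAC3 regions with IL3 at Uggt1 (44.5 without, 17.6 with IL3), in Selp (42.3 and 22.8) and 20606 bp from Cbfa2t3 (48.9 and 15.8). At Prkar2b, whose promoter sequence stands above, the gap was 17 bp.

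The remaining members among the 10 highest HDAC3 scores lay at or near Eefsec (55.6), Gfod1 (51.2), Ddc (48.9), Angpt1 (48.9) and Rbpj (48.9). Those of Eefsec, a translation factor for selenocysteine, Gfod1 and Ddc, the decarboxylase of dopamine synthesis, were in both HDAC3 replicates without IL3 and in all 4 LSD1 replicates, with an HDAC3 region with IL3 between 1288 and 1681 bp away. The region in Angpt1, a vascular growth factor gene, was in HDAC3 replicate 1 alone. That nearest to Rbpj, the DNA-binding partner of Notch, lay 134204 bp from the gene and was also in HDAC3 replicate 1 with IL3.

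Among the 10 highest of the 50 regions with that replicate support, those of Dnah8, Col15a1, Alad and Smad3 had no HDAC3 region with IL3 within 2000 bp. The region in Smad3, which encodes a TGF-beta signal transducer, scored 44.5 (chr9:63716311-63716457) and was called for STAT5A with IL3 in the pooled library (21.4) and in neither replicate. That of Col15a1, a collagen gene, also scored 44.5 and had STAT5A with IL3 in neither replicate. That of Alad, an enzyme of haem synthesis, scored 44.5 as well and had STAT5A with IL3 in replicate 2. Of these 4 genes, Dnah8 was the one with STAT5A in both replicates with IL3.

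STAT5A was called with IL3 at 634 of the 994 regions (63.8%, of all 3347 29.4) in replicate 1 and at 426 (42.9%, of all 22.4) in replicate 2. Both replicates held 207 (20.8%) and neither held 141 (14.2%), against 46.4% and 7.26% of the 358 regions of both conditions with STAT5A. The STAT5A score with IL3 had a median of 25.6 at the members against 23.5 in the whole list of 15543 regions, and 79 of the 994 lay among its 1554 highest. Regions called for HDAC3 with IL3 alone had a median STAT5A score of 66.2 in that list, and those called in both conditions 42.7. The highest STAT5A score at a member, 427.3, was in Smurf1, a ubiquitin ligase gene (chr5:144898773-144898919). HDAC3 scored 20.0 there and was in replicate 1 alone. Scores of 324.7 in Cnbd2, 311.9 in Eps8 and 326.9 at a region 371343 bp from Runx1 came with HDAC3 in neither replicate without IL3, and the last of these was in HDAC3 replicate 1 with IL3. Of the 10 members with the highest STAT5A scores, those in Selp (254.2) and 11 bp from Gm7244 (252.1) were in both HDAC3 replicates without IL3, and both were also in replicate 1 with IL3. The members of Gda (269.2) and Ston2 (260.6) were in HDAC3 replicate 1 alone, and that of Lonrf1 (275.6) in neither replicate.

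**Figure D3:**
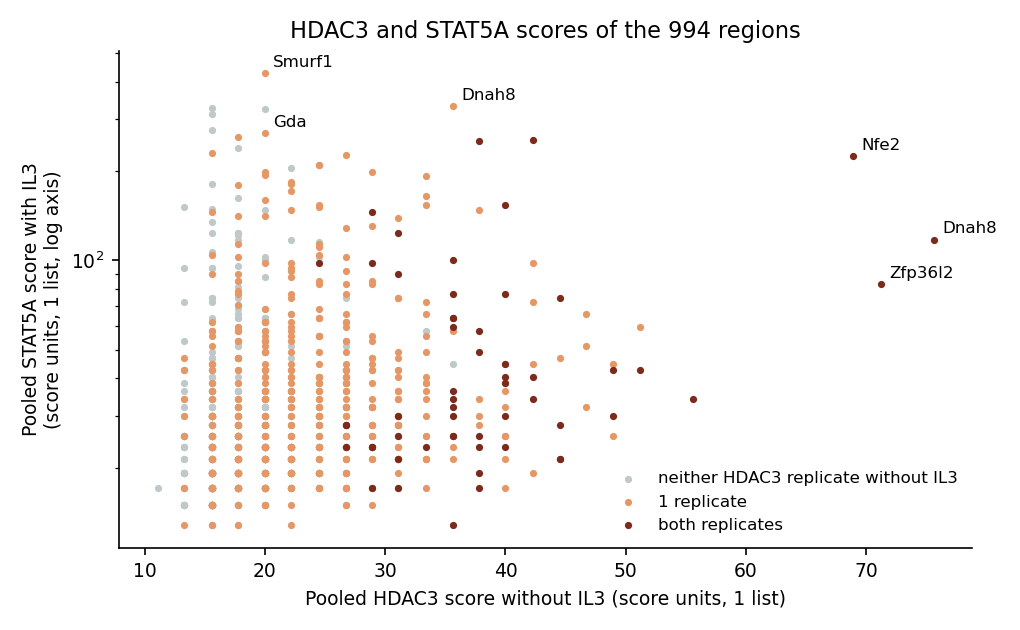
Pooled HDAC3 score without IL3 (horizontal axis) against pooled STAT5A score with IL3 (vertical axis, log scale) for each of the 994 regions, each axis in the score units of its own list, with the colour giving how many HDAC3 replicate lists without IL3 hold the region. Smurf1 lies at 20.0 and 427.3, and Dnah8, Zfp36l2 and Nfe2 lie at the right with HDAC3 scores of 75.6, 71.2 and 68.9.

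Before IL3 was given, STAT5A was already called at 327 of the 994 regions in the pooled library without IL3 (32.9%, of all 3347 25.8). Replicate 1 held 5.33% of the members and replicate 2 held 23.7%, of all 3347 4.15 and 18.1. The whole replicate lists also differed, with 352 and 4504 regions on assembled chromosomes. The members were chosen by the STAT5A list with IL3, so no change of STAT5A between the conditions is read from them.

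LSD1 was measured independently of the rule. It was called at 830 of the 994 regions in the pooled library without IL3 (83.5%, 81.1 to 85.7, of all 3347 69.6) and at 755 with IL3 (76.0%, 73.2 to 78.5, of all 60.5). Both conditions held 682 (68.6%), without IL3 alone 148, with IL3 alone 73, and 91 (9.15%) had no LSD1. LSD1 in both conditions was called at 36.5% of the deprivation-only regions without STAT5A and at 90.8% of the regions of both conditions with STAT5A. By replicate, 95 members (9.56%) were in all 4 LSD1 lists. The LSD1 regions at members were high in their own lists, a trait shared with other HDAC3 regions with STAT5A. Their median LSD1 score was 43.1 without and 24.4 with IL3, against 25.4 and 15.4 in the whole lists. It was 65.9 and 39.1 at the regions of both conditions with STAT5A. At regions called for HDAC3 with IL3 alone and with STAT5A it was 35.5 and 25.7. Of the 830 members with LSD1 without IL3, 312 (37.6%) were among the 1688 highest-scoring of 16886 LSD1 regions. Of the 755 with it with IL3, 264 (35.0%) were among the 1708 highest of 17087. LSD1 scores at HDAC3 regions without STAT5A, and these shares over all 3347, were not computed. The high LSD1 scores are thus tied neither to STAT5A nor to the members. The centres of LSD1 and HDAC3 lay a median of 37.0 bp apart without IL3, and those of STAT5A with IL3 and HDAC3 49.0 bp. All 4 pooled lists of STAT5A and LSD1 held 271 members (27.3%), against 47.2% of the 358 regions of both conditions with STAT5A, and whether signal there depends on the antibody was not tested, as the input library was not used here.

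By replicate, LSD1 was called at 13.3% and 80.1% of the members without IL3 and at 46.8% and 69.0% with IL3, of all 3347 at 11.3, 67.1, 35.6 and 53.1 percent. Replicate 1 without IL3, whose whole list holds 1005 regions, is low and stands apart, and the 2 replicates with IL3 lie between the 2 without. The mean share was 57.9% ± 15.7 with and 46.7% ± 47.2 without IL3 (SD, n = 2 each), a difference of 11.2 percentage points (exact permutation test over the libraries, two-sided p = 1.00, and 1.00 adjusted over 3 comparisons). The smallest p that 2 against 2 allows is 0.333. Without replicate 1 of the group without IL3 the difference was −22.2 points, and with all 4 LSD1 lists cut to 1005 regions it was −1.36, from shares of 13.3%, 21.1%, 15.0% and 16.7%. The data thus gave no stable direction for LSD1 at these regions. In both LSD1 replicates without IL3 and neither with IL3 stood 6 members, and 34 the other way round. Both replicates held 125 members (12.6%) without and 395 (39.7%) with IL3. Of the deprivation-only regions without STAT5A they held 5.55% and 14.2%. The list of 1005 regions limits the counts of both replicates without IL3, so no direction is read from 6 and 34.

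The members were then compared with the 1856 deprivation-only HDAC3 regions that lacked STAT5A. LSD1 was called at 6.03% and 54.9% of those without IL3 and at 20.3% and 36.9% with IL3. The members' share was higher in 4 of 4 LSD1 libraries, by 7.25, 25.2, 26.5 and 32.2 points. The mean difference was 22.8 points ± 10.8 (SD, n = 4 libraries), with a two-sided exact sign-flip permutation p of 0.125, the smallest that 4 libraries allow, and 0.188 adjusted. Members scored higher for HDAC3, so the other regions were weighted to the members' score bands, and the difference was 18.8 points. Within 1 kb of a gene end it was 20.4 points and beyond 10 kb it was 21.8. The 4 libraries without and with IL3 are counted together here, and regions of 1 library are not replicates.

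Against the 358 HDAC3 regions with STAT5A that were called in both conditions, the members had LSD1 less often. LSD1 was called at 30.4% and 93.3% of those 358 without IL3 and at 79.3% and 90.2% with IL3. The members lay below them by 17.2, 13.2, 32.5 and 21.2 points, in 4 of 4 libraries. The mean difference was −21.0 points ± 8.34 (SD, n = 4 libraries), again with a two-sided exact sign-flip permutation p of 0.125 (0.188 adjusted), and −14.6 points with the 358 weighted to the members' HDAC3 score bands. Over all scores STAT5A without IL3 stood in the same order, with 5.33% and 23.7% of the members between 1.72% and 12.3% of the regions that lack STAT5A with IL3 and 13.1% and 31.0% of those called in both conditions. The members and the regions without STAT5A were told apart by STAT5A with IL3, so their order for STAT5A without IL3 is not independent of the rule. Within bands of HDAC3 score the order of the classes did not hold throughout. In replicate 2 the members' share was 25% at 5 to 7 steps against 20% of the regions of both conditions, and in replicate 1 at 10 to 12 steps it was 4.31% against 6.04% of the regions without STAT5A. None of these comparisons can pass 0.05 with this number of libraries.

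**Figure D4:**
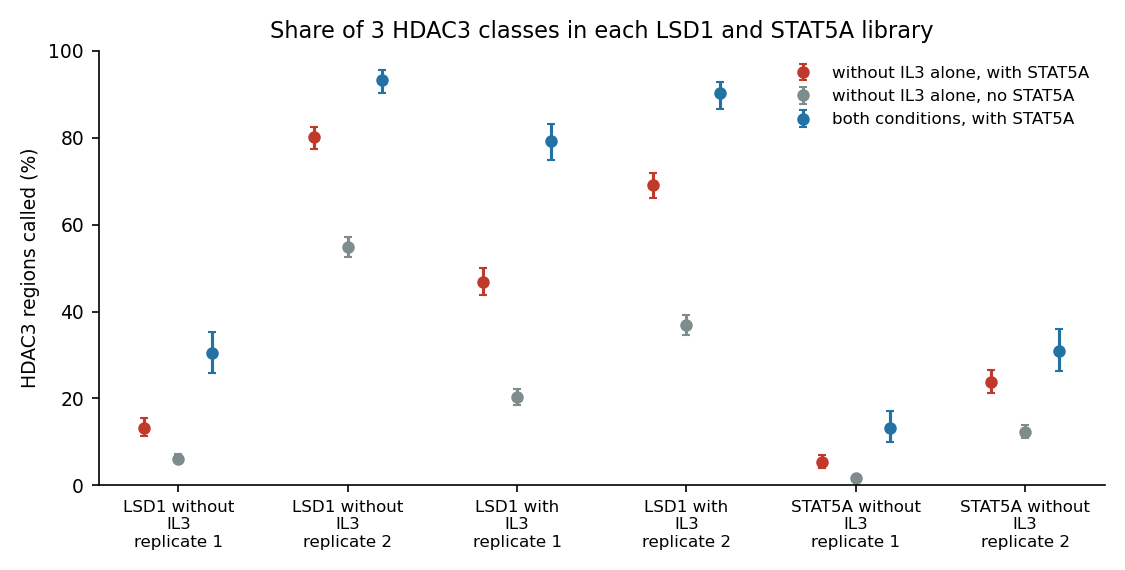
Share of 3 classes of HDAC3 region without IL3 that was called in each LSD1 library and each STAT5A library without IL3 (percent, vertical axis), with 95% Wilson intervals that cover counting error only. In all 6 libraries the 994 members (red) lie between the 1856 deprivation-only regions without STAT5A (grey) and the 358 regions of both conditions with STAT5A (blue). Red and grey were told apart by STAT5A with IL3, so their order in the STAT5A libraries is not independent of the rule.

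By position, 241 of the 994 members (24.2%, 21.7 to 27.0, of all 3347 26.4) were centred 1 kb or less from the end of a gene, 275 between 1 and 10 kb, and 478 (48.1%) beyond 10 kb. Gene bounds have no strand in the annotation used, so an end is either bound of a protein-coding gene. Of the deprivation-only regions without STAT5A 30.4% lay within 1 kb of an end, and of the regions of both conditions with STAT5A 10.6%. Inside a gene lay 534 members (53.7%, of all 3347 56.6). Within 10 kb of another member lay 78 (7.85%, 6.33 to 9.69), against 14.5% (13 to 16.2) of the deprivation-only regions without STAT5A and 8.66% (6.17 to 12) of the regions of both conditions with STAT5A. These classes hold 994, 1856 and 358 regions, and a larger class has more neighbours by number alone, so no difference is read from these shares.

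The STAT5A replicates split by position. At the 241 members near gene ends, STAT5A with IL3 was called in 29.9% by replicate 1 and 65.6% by replicate 2. At the 478 beyond 10 kb it was called in 77.8% by replicate 1 and 32.2% by replicate 2, the opposite order. The regions of both conditions with STAT5A showed this reversal too. Replicates 1 and 2 held 52.6% and 68.4% of 38 such regions within 1 kb, and 87.2% and 58.3% of 235 beyond 10 kb. Without IL3, replicate 2 held 41.5% of the members near gene ends and 14.0% of those beyond 10 kb, and replicate 1 held 2.49% and 6.49%. Found with replicate 2 of STAT5A with IL3 in place of the pooled list, 528 regions met the rule and 41.9% of them lay within 1 kb of a gene end. With replicate 1 there were 683, and 11.3% did. HDAC3 replicate 1 without IL3 held 32.4% of the members near gene ends and 58.8% of those beyond 10 kb, and in the 429 members of the length-matched list 13.8% lay near gene ends.

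The same split ran through the promoter sequences. Of the 93 promoter members, 46 (49.5%) were in STAT5A replicate 2 with IL3 alone, and 0 of those held TTCNNNGAA. Replicate 1 alone held 12, with 1 match (Gm34793), both replicates held 16, with 1 match (B230219D22Rik), and 19 were in neither. In the 832 promoter regions with STAT5A and no HDAC3, the letters were in 48.4% of 122 regions of both replicates, 31.5% of 270 of replicate 1 alone, 1.38% of 290 of replicate 2 alone and 2.67% of 150 in neither. Promoter regions of replicate 2 alone had a median of 17 CpG among members and 18 among the 832. What part the library, the base composition and the placing of the window on HDAC3 have in the low share of STAT letters at promoter members was not tested.

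**Figure D5:**
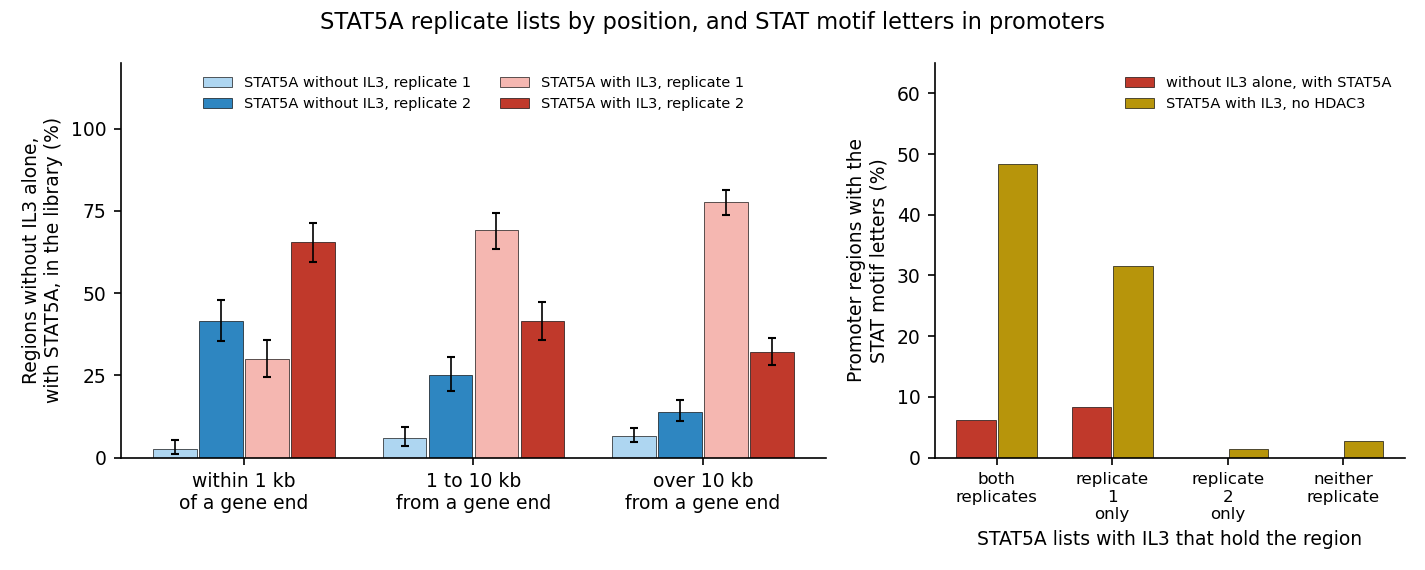
Left, share of the members called in each STAT5A library (percent, vertical axis, 95% Wilson intervals) by distance to the nearest gene end, with replicate 2 with IL3 at 65.6% within 1 kb and 32.2% beyond 10 kb. Right, share of promoter regions with TTCNNNGAA (percent) by the STAT5A lists with IL3 that hold them, for the 93 members and for 832 STAT5A regions without HDAC3, which reach 48.4% in both replicates and 1.38% in replicate 2 alone. Members are read over their HDAC3 region and the 832 about the centre of their STAT5A region.

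Genes of fixed lists were then read for a member inside the gene or within 10 kb of an end. Of 21887 protein-coding genes 941 had one, 4.30 percent, 868 of them with 1 member, 61 with 2 and 12 with 3. The 12 are Alox5, Angpt1, Atxn7l1, Col15a1, Dnah8, Fli1, Hdac7, Mad1l1, Prkar2b, Runx1, Runx2 and Zmiz1. Long genes have more room for a region, and gene length was not accounted for. Of 15 genes specific to other tissues 0 had a member.

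Haematopoietic transcription factors had the largest share of the lists, 11 of 39 genes (28.2%) with 18 members. Of the same 39 genes, 16 had a deprivation-only HDAC3 region without STAT5A, so the list is not particular to the members. Gfi1b, whose product recruits LSD1, had a member 3048 bp inside the gene (chr2:28618861-28619007) with HDAC3 at 40.0 in replicate 1 alone. LSD1 there was in all 4 replicates, with pooled scores of 210.5 without and 75.7 with IL3 in separate lists, and STAT5A with IL3 was 21.4. In Hhex, a homeobox factor of early blood and B cells, the member (35.6) was in both HDAC3 replicates without IL3 and neither with IL3, and LSD1 was 114.1 without IL3. Klf1, an erythroid factor, had a member of 28.9 in the same HDAC3 replicates, with STAT5A 23.5 in replicate 2. Runx2 had 3 members (31.1, 26.7 and 17.8) between 96649 and 158692 bp from its ends, and Irf2 had 1 of 28.9 that lay outside the gene by 3313 bp.

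Among 26 cytokine feedback and STAT5 target genes 5 had a member, and HDAC3 was in replicate 1 alone or in neither at all of them. Spred2, an inhibitor of the ERK pathway, had 2 (31.1 and 22.2). Pim3, a survival kinase, had 1 at 24.5 with STAT5A 115.4 in both replicates with IL3, 6540 bp outside the gene and inside Gm33049. Lif, a cytokine gene, had 1 inside the gene at 20.0 with STAT5A 100.4 in both replicates and HDAC3 in neither. Dusp6, a phosphatase of ERK, had 1 at 17.8 with STAT5A 85.5. Bcl2, the survival gene, had 1 at 15.6 with STAT5A 38.5 and no LSD1 in either condition.

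Among receptor, JAK and STAT genes, Jak2 and Csf2rb2 had members. The region at Jak2, 89 bp before the gene start and printed above, had HDAC3 at 24.5 in replicate 1, LSD1 with IL3 alone (42.4) and STAT5A with IL3 (27.8) in replicate 2. STAT5A was also called there without IL3 (25.1), again in replicate 2. Csf2rb2, a receptor chain for IL3, had HDAC3 28.9, LSD1 81.2 without IL3 and STAT5A 53.4 with IL3, 4015 bp from the gene. LSD1 was also called there with IL3 (28.2), and STAT5A without IL3 (16.8) in the pooled library and in neither replicate.

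Immediate early genes had a member at 6 of 24, and these are the genes that growth factors switch on first. At Junb the region lay 261 bp from the gene, with STAT5A 209.4 in both replicates with IL3, HDAC3 24.5 in replicate 1, and LSD1 called in no list. At Fos it lay 339 bp away, with HDAC3 20.0 and STAT5A 21.4 in replicate 2. Maff, printed above, had STAT5A 70.5 and HDAC3 17.8, and no replicate list of any of the 3 proteins held its region. Fosb (31.1), Zfp36l2 (31.1) and Egr1 (28.9) had regions between 2960 and 6551 bp from the gene, each in HDAC3 replicate 1 alone. Support at these genes thus came mainly from 1 HDAC3 replicate.

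Among genes of LSD1 and HDAC3 complexes, Gse1, which encodes a CoREST-associated protein, had members of 40.0 and 24.5, and Ncor1, which encodes the corepressor that binds HDAC3, had 1 of 15.6. The region of Ncor1 was in HDAC3 replicate 2 alone, and LSD1 was called there without IL3 (17.8) and not with it. Of 15 myeloid and mast cell genes 2 had members. Gpr84, a receptor of myeloid cells, had the highest LSD1 score of all members, 347.4 without IL3 (204.1 in the list with IL3), with HDAC3 24.5 in replicate 2 alone. Alox5, the lipoxygenase of leukotriene synthesis, had 3 (42.3, 24.5 and 17.8), and at the last STAT5A reached 239.3 in both replicates. B lineage genes had members at Ptprc (24.5) and, inside the neighbouring gene Arhgef1, near Cd79a (17.8), 2 of 15. The region near Cd79a was in neither HDAC3 replicate without IL3. STAT5A scored 157.1 there without and 123.9 with IL3, in separate lists. Of 23 FOXO and deprivation genes Cdkn2d (26.7) and Bcl2l11 (22.2) had one, and so did Nfkbia (26.7), which encodes an inhibitor of NF-kB. The region counted for Bcl2l11 lay 318 bp outside that gene and inside Acoxl. Expression was not measured in these libraries.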

How the data were processed

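HDAC3, LSD1 and STAT5A were measured by ChIP-seq in 12 libraries, 2 biological replicates for each of 6 groups per the labels. Trimmomatic 0.30, Bowtie2 2.1.0, Picard 1.92, HOMER 4.8 and the build mm10 are named, with no role or order, per the submitters' processing notes. The authors deposited BED lists of regions per replicate and per pooled group, and each region carries a score, whose definition, like the caller's settings, control and threshold, is not given in the sources used here. All scores of 1 list fall within 0.1 score units of a whole number of steps, with a step of its own for each list. The reading of that step as 1 read is an inference, and scores of different lists were not compared as levels. The pooled lists were the authors' own. A region can be called in the pool and in no replicate, and a missing call does not show that the protein was absent.

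Regions on 21 assembled chromosomes were overlapped (1 bp or more) in Python 3.11.15 with numpy 2.4.6 and scipy 1.17.1, and plotted with matplotlib 3.10.9. Members, gene lists, tests and alternatives were chosen with earlier results of these data known. Shares carry 95% Wilson intervals, which cover counting error only. LSD1 shares were compared over libraries by exact permutation (2 against 2) or exact sign-flip over 4 libraries, adjusted by Benjamini-Hochberg over 3 comparisons at 0.05. Same-numbered replicates deviated together with correlations of 0.09 (LSD1), 0.21 (STAT5A) and 0.21 (HDAC3) over 3347 regions. With 2 pairs and no shared batch in the labels, the numbers were not taken as pairs.

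Genes named are those with the 10 highest HDAC3 scores, the 10 highest STAT5A scores, the 10 highest HDAC3 scores among regions of both HDAC3 replicates without and neither with IL3, and up to 6 per gene list by HDAC3 score, or as stated otherwise. Outside the fixed gene lists, a region was given the gene it lies in, or else that with the nearest end. Of 21887 genes 17492 had a listed promoter in the RefSeq table. Distal sequences were not analysed here. Some genes of the lists are not reported here. Other overlap minimums, list lengths, gene distances and window widths were tried, and each replicate list was put in place of its pooled list. The assignment to classes was tested on simulated data.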

Additional observations from a re-analysis of the deposited data

How the results depend on the processing

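Of 52 alternatives, 33 kept direction and side or stayed within the limit for a count or share, 16 moved and 3 reversed. Side means the side of the test threshold, which no comparison of these libraries can pass, so side could not change. Nor could the LSD1 differences between the members and the other classes reverse with 1 library left out. The 33 thus include alternatives whose outcome was fixed beforehand, and this count is no measure of stability. The number of members moved from 994 to 429 with the HDAC3 list without IL3 cut to the length of that with IL3 (393 or 539 with regions tied at the lowest score all left out or all kept), to 355 with the STAT5A list with IL3 cut to the length of that without, to 449 with only the upper part of each pooled list by score, and to 110 with both HDAC3 lists cut to the shortest replicate list. In each of these fewer regions were entered. Leaving out 1 replicate, so that the other stands for the pooled list, gave 119 (without HDAC3 replicate 1 without IL3) to 1330 members (without HDAC3 replicate 1 with IL3), with 528 and 683 when STAT5A replicate 1 or 2 with IL3 was left out and 583 without HDAC3 replicate 2 without IL3.

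The LSD1 difference with against without IL3, 11.2 points, ranged from −22.2 to 44.6 with 1 LSD1 replicate left out, and was −1.36 with the 4 LSD1 lists cut to the shortest. With the replicate block it was 11.2 (exact sign-flip p = 1.00, where 2 pairs allow no less than 0.5), so the block changed no call. The STAT5A difference with against without IL3, 38.8 points, was −2.92 with the 4 lists cut to the shortest. The members were chosen by STAT5A with IL3, so the 38.8 points are no result about a change of STAT5A. These values at −1.36 and −2.92 set the top of long lists beside a whole short list, so they show how the differences depend on list length and no change of binding. The reversal to −22.2 came from leaving out LSD1 replicate 1 without IL3, and its cause was not tested. The LSD1 differences of the members from the regions without STAT5A (19.6 to 27.9 points with 1 library left out) and from those of both conditions (−23.6 to −17.2) kept their sign in every alternative run. In each comparison all 4 libraries had the same sign, so leaving 1 out could not change it. In the other alternatives the differences ran from 18.8 to 23.4 points and from −24.2 to −14.6.

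The share near gene ends, 24.2%, was 39.6% at 5000 bp and 19.5% at 500 bp, 13.8% in the length-matched list, and 11.3% to 41.9% with 1 STAT5A replicate left out. The share with TTCNNNGAA, 2.15%, was 0 in the central 100 bp, and 1.18% to 9.68% with 1 STAT5A replicate left out. Whether depth or library sets these was not tested. The handling of ties, the weighting by score, the split by position, the removal of members with HDAC3 within 1000 bp, the members found by 1 STAT5A replicate and their length-matched gene-end share were chosen after seeing the data.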
